A study of Homo sapiens with 4 samples.

Results

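Integrin and laminin genes were measured in HT1080 cells in hypoxia and under control conditions. Members were the genes with a symbol of the integrin alpha, integrin beta or laminin alpha, beta or gamma series, taken where a probe set named that gene alone. This gave 36 of the 18417 genes measured. ITGA1, which shares its only probe set here with PELO, is not among them. The members were 25 integrin subunits, 10 laminin chains and ITGBL1, which carries an integrin beta-like name but encodes a secreted protein and no receptor subunit. Each member had 1 probe set.

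Human HT1080 fibrosarcoma cells, a single tumour-derived line grown in low-serum medium, were kept for 36 h at 1% oxygen (hypoxia) or at 21% oxygen (control), with no other difference between the groups in the labels. Total RNA was taken from the cells, and ER-RNA from an endoplasmic reticulum (ER) fraction prepared from cells briefly pre-treated with the translation inhibitor cycloheximide in both groups. The 4 groups were total RNA in hypoxia, total RNA in control, ER-RNA in hypoxia and ER-RNA in control, with 1 Affymetrix Human Gene ST array each. RNA of 5 experiments was pooled on each array. Replicates are therefore lacking, no p-value can be given, and the precision of every value is limited by the number of arrays.

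Integrins are cell-surface receptors made of 1 alpha and 1 beta subunit, and the pair sets which matrix protein is bound. Laminins are secreted trimers of 1 alpha, 1 beta and 1 gamma chain that form the sheet of the basement membrane, to which several integrins bind. Both groups of proteins are made on ER-bound ribosomes, and both take part in the attachment and migration of fibroblast and tumour cells.

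The values are RMA-normalised log2 signals of a probe set, which cannot be ranked between genes because probes differ in their response. The array medians were 7.49 in hypoxia and 7.41 in control for total RNA, and 6.34 in hypoxia and 6.25 in control for ER-RNA. For that reason hypoxia and control were set against each other inside a fraction. Genes were taken as expressed when the value of 1 or both arrays of the pair exceeded the array median. A call of higher or lower needed a fold change above 1.4 together with an absolute z-score above 3. The z-score is the log2 fold change over the SD of a gene's hypoxia and control values, smoothed over genes of similar mean value. It does not count SDs of the log2 fold changes among such genes. All 8 hypoxia response genes listed as a check of the labels rose in both fractions, with log2 fold changes of 1.37 to 1.98 in total RNA and 1.06 to 1.97 in ER-RNA. The mesenchymal markers VIM, CDH2 and TWIST1 were expressed in both fractions, whereas THY1 was expressed in neither. The epithelial markers EPCAM, CDH1 and CLDN4 stayed below the filter in both fractions, and the keratin genes KRT8, KRT18 and KRT19 passed it. The paper reports checking the ER fraction by western blots of ER and cytosolic marker proteins, and selected mRNAs by co-staining with calnexin. In these arrays, transcripts of integrins, laminins and other matrix proteins lay lower in ER-RNA over total RNA than most genes. A value in ER-RNA was therefore not read as ER-bound RNA. This difference between arrays of unlike medians is no test of the purity of the fraction.

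Of the 36 members, 24 were expressed in total RNA, 24 in ER-RNA, 22 in both and 10 in neither. In total RNA 1 of 24 expressed members (4.17%) was called higher in hypoxia, against 2.32% of all expressed genes, and 0 of 24 were called lower, against 7.45%. In ER-RNA 1 of 24 (4.17%) was called higher, against 1.12%, and 0 of 24 were called lower, against 8.25%. The single call was of ITGB3 in both fractions. Each share of members higher rests on this 1 gene. Past the 1.4-fold limit alone were 5 expressed members in each fraction. They were ITGB3, ITGA5 and LAMB3 (higher) and ITGA11 and ITGA6 (lower) in total RNA, and ITGB3, ITGA5, LAMB3, LAMA4 and ITGA3 (all higher) in ER-RNA. Of all expressed genes, 6.2% were higher and 18.6% lower by this limit in total RNA, and 6.53% higher and 21.4% lower in ER-RNA.

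**Figure D1:**
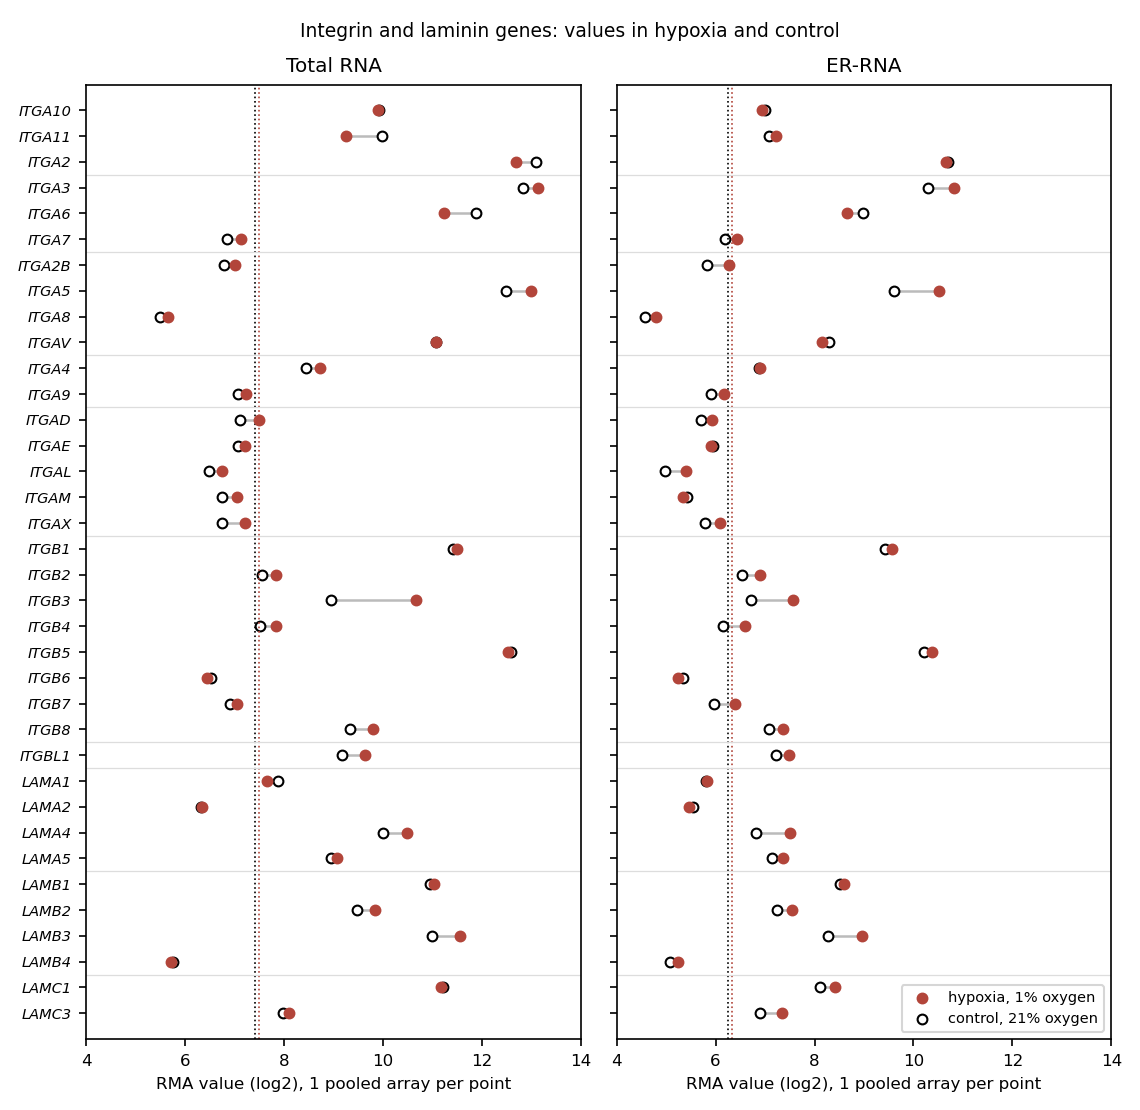
Log2 RMA value of each of the 36 members in total RNA (left panel) and ER-RNA (right panel), with hypoxia as filled and control as open points, 1 pooled array per point. Dotted lines mark the array medians, and grey lines separate the classes. The widest gap in total RNA is that of ITGB3 (10.67 in hypoxia and 8.94 in control), and most other members have points that lie close together.

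Among the expressed members, the log2 fold change was above 0 for 17 of 24 in total RNA, with a median of 0.20, against a median of -0.06 over all expressed genes, of which 44.3% were above 0. In ER-RNA it was above 0 for 20 of 24, with a median of 0.26, against -0.04 over all expressed genes, of which 47.0% were above 0. These counts include members that passed the filter through the hypoxia array alone, whose sign was thereby fixed above 0. They were ITGAD in total RNA and ITGA7, ITGB4 and ITGB7 in ER-RNA. With both arrays required to pass, 23 members were expressed in total RNA and 21 in ER-RNA. Under the 3 other scalings tried, 16 to 20 of 24 were above 0 in total RNA and 18 to 21 of 24 in ER-RNA, the lowest counts being those with each array centred on its median. Every expressed member other than ITGB3 lay between -0.74 and 0.57 in total RNA. Over all 36 members the total RNA median was 0.16, against 0.03 over all genes, and the ER-RNA median was 0.24, against 0.06. Genes of low signal were above 0 more often than the expressed ones. Of those below the filter 67.9% had a value above 0 in total RNA and 70.2% in ER-RNA, against 10 of 12 members and 8 of 12 members. The part of low signal in the medians was not tested.

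ITGB3 encodes the beta3 subunit, which pairs with alphaV in fibroblasts and tumour cells to bind vitronectin and other proteins with an RGD sequence, and with alphaIIb in platelets. Its log2 value in total RNA was 10.67 in hypoxia and 8.94 in control, and in ER-RNA it was 7.56 in hypoxia and 6.71 in control. ITGB3 rose 3.32-fold in total RNA (log2 fold change 1.73, z-score 6.15) and 1.81-fold in ER-RNA (log2 fold change 0.86, z-score 3.57). It held rank 29 of 11530 expressed genes in total RNA and rank 133 of 11876 in ER-RNA, counted from the highest log2 fold change. The ER-RNA call was lost with an SD taken from the scaled MAD, with a fold limit of 2 and with a filter at the upper quartile. The total RNA call held under all 10 alternatives tried, of which fold change alone could not undo a call. In bulk RNA a rise of RNA per cell and a larger share of cells with that RNA cannot be told apart.

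The alpha partners of beta3 had small fold changes or lay below the filter. ITGAV, the alphaV gene, had 11.08 in hypoxia and 11.07 in control in total RNA, and 8.16 in hypoxia and 8.28 in control in ER-RNA, with log2 fold changes of 0.02 and -0.13. The first of these became -0.06 with median centring. ITGA2B, which encodes alphaIIb, was below the filter in both fractions. Of the other beta subunits that pair with alphaV, none was called. ITGB5, a vitronectin receptor subunit, had 12.54 in hypoxia and 12.58 in control in total RNA, and 10.38 in hypoxia and 10.21 in control in ER-RNA, with log2 fold changes of -0.05 and 0.17. ITGB8, a subunit that binds latent TGF-beta, had 9.81 in hypoxia and 9.34 in control in total RNA (1.38-fold) and 7.36 in hypoxia and 7.08 in control in ER-RNA (1.21-fold). Its log2 fold change of 0.46 in total RNA became 0.65 after quantile normalization and 0.56 after loess within the pair, both past the 1.4-fold limit and not called. ITGB6, the epithelial partner of alphaV, was below the filter in both fractions. ITGA8, another alpha subunit for RGD proteins, was below it too. Of the ligands, VTN, which encodes vitronectin and was picked after its values were seen, had log2 fold changes of 0.16 (total RNA) and 0.29 (ER-RNA). SPP1, which encodes the RGD protein osteopontin, fell by 0.91 in total RNA and by 1.01 in ER-RNA on the log2 scale.

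ITGA5 encodes alpha5, which with beta1 forms the main fibronectin receptor. It had 13.00 in hypoxia and 12.49 in control in total RNA, and 10.52 in hypoxia and 9.60 in control in ER-RNA. The difference was 1.42-fold in total RNA (log2 fold change 0.51) and 1.89-fold in ER-RNA (log2 fold change 0.92). The z-score was 2.87 in both fractions, just under the limit, so the gene was not called. It was called higher in both fractions after quantile normalization over the 4 arrays (log2 fold changes of 0.63 and 0.97) and after loess normalization within each pair (0.55 and 1.04). In ER-RNA ITGA5 had the highest log2 fold change of all expressed members, and it ranked 107 of 11876 genes. ITGB1, the common beta1 subunit, had 11.50 in hypoxia and 11.41 in control in total RNA and 9.57 in hypoxia and 9.42 in control in ER-RNA, with log2 fold changes of 0.09 and 0.15. FN1, which encodes fibronectin, was not called, with log2 fold changes of 0.22 (total RNA) and 0.51 (ER-RNA).

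The 3 members that encode alpha subunits binding collagen with beta1 lay at or below control in total RNA. ITGA11, a fibrillar collagen receptor subunit of fibroblasts, had 9.25 in hypoxia and 9.98 in control in total RNA, which is 0.601 of control (z-score -2.63), and 7.22 in hypoxia and 7.09 in control in ER-RNA (1.10-fold). ITGA2, which binds collagens and also laminins, had 12.69 in hypoxia and 13.08 in control in total RNA (log2 fold change -0.40), and 10.66 in hypoxia and 10.70 in control in ER-RNA (-0.05). ITGA10, a collagen receptor subunit of cartilage, had log2 fold changes of -0.03 and -0.05. The first of these became 0.13 after quantile normalization and 0.08 after loess within the pair. None of the 3 was called. ITGA11 and ITGA5 thus had opposite signs in total RNA, and both were above control in ER-RNA.

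The laminin-binding alpha subunits differed among themselves. ITGA3 encodes a receptor subunit for laminins of epithelial and vascular basement membranes. It had 13.13 in hypoxia and 12.82 in control in total RNA (1.24-fold), and 10.81 in hypoxia and 10.29 in control in ER-RNA (1.44-fold, z-score 1.69). ITGA6, which pairs with beta1 or, in hemidesmosomes, with beta4, had 11.24 in hypoxia and 11.88 in control in total RNA (0.642 of control, z-score -2.56), and 8.65 in hypoxia and 8.99 in control in ER-RNA (0.791 of control). It had the lowest log2 fold change of the expressed members in ER-RNA and the next to lowest in total RNA. ITGB4, the hemidesmosome subunit, had 7.83 in hypoxia and 7.51 in control in total RNA (1.25-fold), and 6.60 in hypoxia and 6.15 in control in ER-RNA (1.37-fold). ITGA7, the laminin receptor subunit of muscle, passed the filter in ER-RNA alone, with a log2 fold change of 0.24. None of the 4 was called.

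The subunits known from leukocytes were mostly below the filter. ITGAL, ITGAM, ITGAX and ITGAE were expressed in neither fraction, and ITGAD passed in total RNA with 7.50 in hypoxia and 7.11 in control, next to the array medians. ITGB2, the common beta subunit for ITGAL, ITGAM, ITGAX and ITGAD, had 7.84 in hypoxia and 7.56 in control in total RNA. In ER-RNA it had 6.90 in hypoxia and 6.54 in control. ITGB7 passed in ER-RNA alone, with a log2 fold change of 0.43. ITGA4, which with beta1 or beta7 binds VCAM-1 and fibronectin, had 8.73 in hypoxia and 8.45 in control in total RNA, and 6.89 in hypoxia and 6.88 in control in ER-RNA, with log2 fold changes of 0.28 and 0.003. ITGA9 was expressed in neither fraction. Of 7 leukocyte markers, 4 were expressed in neither fraction, among them the defining gene PTPRC, with 4.65 in hypoxia and 4.67 in control in total RNA. The other 3 were ITGB2 itself, CD14, which passed the filter in ER-RNA alone, and LCP1, an actin-bundling protein gene that many tumour lines also express. LCP1 had 11.35 in hypoxia and 12.09 in control in total RNA, where it was called lower, and 10.16 in hypoxia and 10.89 in control in ER-RNA. Their part in the values of the leukocyte subunits was not tested. The log2 value of a probe set has no true zero, so a low value is not read as absence.

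LAMB3 and LAMA4 had the highest fold changes of the laminin chains. LAMB3 encodes the beta3 chain, which is part of a laminin of epithelial attachment. It had 11.56 in hypoxia and 10.98 in control in total RNA (1.49-fold), and 8.95 in hypoxia and 8.27 in control in ER-RNA (1.61-fold), with a z-score of 2.19 in both fractions. LAMA4, an alpha chain of vascular and mesenchymal basement membranes, had 10.49 in hypoxia and 10.01 in control in total RNA (1.39-fold, z-score 1.70), and 7.51 in hypoxia and 6.81 in control in ER-RNA (1.63-fold, z-score 2.92). Neither gene was called in either fraction.

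The chains of the widespread laminins showed smaller fold changes. LAMB1 had 11.04 in hypoxia and 10.94 in control in total RNA, and 8.59 in hypoxia and 8.51 in control in ER-RNA, with log2 fold changes of 0.09 and 0.07. LAMC1, the common gamma chain, had 11.18 in hypoxia and 11.22 in control in total RNA, and 8.41 in hypoxia and 8.11 in control in ER-RNA, with log2 fold changes of -0.04 and 0.30. LAMA5 had 0.12 and 0.24, LAMB2 had 0.36 and 0.30, and LAMC3 had 0.11 and 0.44. LAMA1, the alpha chain of the early embryo, was expressed in total RNA alone, with 7.65 in hypoxia and 7.87 in control. LAMA2 and LAMB4 were expressed in neither fraction. Over the laminin chains expressed in each fraction, 6 of 8 were above 0 in total RNA with a median of 0.12, and 7 of 7 in ER-RNA with a median of 0.30. These counts depend on the scaling. LAMB1 in ER-RNA became -0.01 with median centring, and LAMC1 in total RNA became 0.05 after quantile normalization and after loess. ITGBL1 had 9.64 in hypoxia and 9.17 in control in total RNA (1.38-fold), and 7.48 in hypoxia and 7.23 in control in ER-RNA (1.19-fold).

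**Figure D2:**
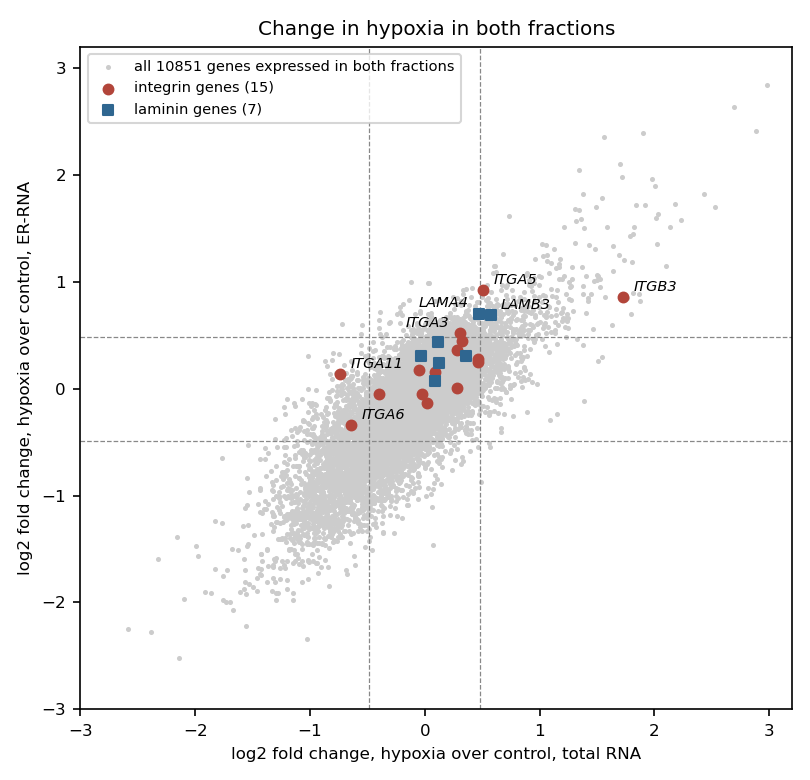
Log2 fold change of hypoxia over control in total RNA (horizontal axis) against ER-RNA (vertical axis) with integrin genes as circles, laminin genes as squares and all 10851 genes expressed in both fractions in grey, 1 point per gene, and dashed lines at the 1.4-fold limits. Among the members, ITGB3 lies farthest right (1.73 in total RNA), ITGA5 highest (0.92 in ER-RNA), and ITGA11 farthest left (-0.74 in total RNA, 0.14 in ER-RNA).

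Total RNA and ER-RNA gave unlike fold changes for a few members, as the plot of both fold changes shows. For ITGB3 the log2 fold change was lower by 0.87 in ER-RNA than in total RNA, and for ITGA11 it was higher by 0.87. Of the 10851 genes expressed in both fractions, 1.03% had a difference at least as far from 0 as that of ITGB3 and 1.07% as that of ITGA11. These shares describe the 4 arrays, and a difference between fractions could not be set against a spread between experiments. Of the other members, ITGA5 had 0.41 more in ER-RNA, ITGA2 0.35 more and LAMC1 0.34 more.

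The promoter windows of ITGA5, LAMA4 and ITGA11 are shown for the letters ACGTG or GCGTG, the core bound by hypoxia-inducible factors. Apart from ITGB3, ITGA5 and LAMA4 had the highest log2 fold changes of the expressed members in ER-RNA. ITGA11 had the lowest in total RNA. No window was available for ITGB3, the only member called, so its promoter was not examined. Sequences are those of RefSeq on GRCh38.p14, 5′ to 3′ in the direction of the gene, and cover the 250 bases before the start. Capitals mark the letters found on either strand, which read CACGT or CACGC where they lie on the opposite strand. The windows are on the minus strand at chr12:54419267-54419516 (ITGA5), chr6:112254568-112254817 (LAMA4) and chr15:68432164-68432413 (ITGA11).
ITGA5: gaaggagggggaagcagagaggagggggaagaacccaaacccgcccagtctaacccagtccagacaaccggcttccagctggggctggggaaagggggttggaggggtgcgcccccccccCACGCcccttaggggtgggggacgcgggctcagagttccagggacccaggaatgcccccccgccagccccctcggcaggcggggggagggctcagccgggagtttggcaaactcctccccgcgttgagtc
LAMA4: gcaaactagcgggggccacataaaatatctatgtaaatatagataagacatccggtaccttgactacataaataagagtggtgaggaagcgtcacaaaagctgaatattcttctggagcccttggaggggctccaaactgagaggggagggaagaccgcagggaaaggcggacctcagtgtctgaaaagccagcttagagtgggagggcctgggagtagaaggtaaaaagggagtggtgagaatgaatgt
ITGA11: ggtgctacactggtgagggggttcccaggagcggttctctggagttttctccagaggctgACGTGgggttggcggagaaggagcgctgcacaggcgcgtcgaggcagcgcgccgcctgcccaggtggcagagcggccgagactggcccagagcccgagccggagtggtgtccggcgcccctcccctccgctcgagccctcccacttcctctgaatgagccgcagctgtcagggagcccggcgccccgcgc
The ITGA5 window holds CACGC beginning 130 bases before the start, the ITGA11 window holds ACGTG beginning 190 bases before it, and the LAMA4 window holds neither. Of the 25 members with a window, 9 (36.0%) held the letters in at least 1 window. Counted by window, 11 of 32 member windows (34.4%) held them, against 15172 of 35116 windows of all genes (43.2%). A match is a description of the letters and no binding site, and its absence is a statement about this window alone.

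The position of the members in ER-RNA over total RNA was similar in hypoxia and in control. Over the 22 members expressed in both fractions, the median of the log2 value in ER-RNA minus that in total RNA was -2.31 in hypoxia and -2.38 in control, against -1.03 in hypoxia and -1.02 in control over all genes expressed in both. The fractions differ in array median, so only the distance to other genes was read. In hypoxia 20 of 22 members lay below the median of all genes, the exceptions being ITGB2 and LAMC3, and in control 22 of 22 did. The members spanned -3.11 (ITGB3) to -0.75 (LAMC3) in hypoxia, and -3.20 (LAMA4) to -1.02 (ITGB2) in control. Integrin subunits and laminin chains were close to each other, with medians of -2.24 and -2.45 in hypoxia and -2.38 and -2.43 in control.

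**Figure D3:**
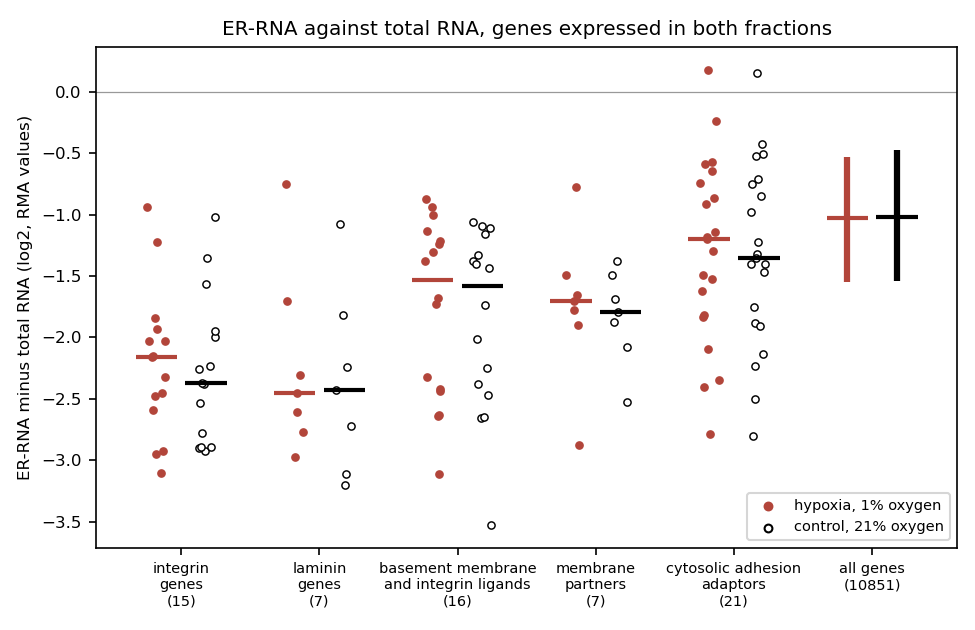
Log2 value in ER-RNA minus total RNA (vertical axis) in hypoxia (filled) and control (open), 1 point per gene expressed in both fractions, for integrin genes with ITGBL1, laminin genes and 3 other lists of adhesion genes, with horizontal bars at the medians and, for all genes, vertical bars over the middle quartiles. Laminin genes have medians of -2.45 in hypoxia and -2.43 in control, cytosolic adaptors -1.20 and -1.35, and all genes -1.03 and -1.02.

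This difference moved with signal. Of the 22 members, 17 were in the highest of 3 equal bins of all genes by mean total RNA value, and in that bin the members had a median of -2.45 in hypoxia and -2.54 in control, against -1.24 and -1.15 for all genes of the bin, with 17 of 17 below it in both conditions. The 2 members of the middle bin had medians of -1.77 and -1.69, against -1.13 and -1.08. The 3 members of the lowest bin, ITGB2, ITGB4 and LAMC3, had -0.94 and -1.08, against -0.90 and -0.93. The 21 cytosolic adhesion adaptors expressed in both fractions had medians of -1.20 in hypoxia and -1.35 in control. TLN1, which encodes talin, an activator of integrins and itself cytosolic, was picked after its values were seen and had -2.79 in hypoxia and -2.80 in control and so lay among the members. The adaptors VCL (-2.40 and -2.50) and TNS3 (-2.35 and -2.23), picked likewise, did too. Of the 21 adaptors, 13 lay below the median of all genes in each condition. The 16 matrix and ligand genes had -1.53 and -1.58, and the 7 membrane partners and further laminin receptors had -1.70 and -1.80. These lists were not matched to the members in signal.

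In the other lists of adhesion genes no gene was called higher in either fraction. Of all expressed genes, 2.32% were called higher in total RNA and 1.12% in ER-RNA. Called lower were 1 of 23 expressed adaptors and 2 of 17 expressed matrix and ligand genes in total RNA, against 7.45% of all expressed genes, and 1 of 21 and 2 of 16 in ER-RNA, against 8.25%. Of the cytosolic adaptors, RSU1, a partner of the ILK and PINCH complex that links integrins to actin, fell in both fractions. It had 9.63 in hypoxia and 11.06 in control in total RNA, and 9.39 in hypoxia and 10.54 in control in ER-RNA, which are 0.370 and 0.450 of control. TGFB1I1, a paxillin relative, had the highest log2 fold changes of the expressed adaptors, which were 0.31 for total RNA and 0.38 for ER-RNA. The adaptors as a whole had a median of -0.05 for total RNA and of 0.02 for ER-RNA. Of the matrix and ligand genes, SPARC, a collagen-binding matrix protein gene, fell in both fractions along with SPP1, with log2 fold changes of -0.64 and -0.92. EDIL3, an RGD protein that binds alphaV integrins, had the highest log2 fold change in total RNA (0.56) and was not called. Of 8 membrane partners and further laminin receptors, 7 were expressed in each fraction and 0 were called. The expressed ones had log2 fold changes of -0.64 (SDC1, a syndecan) to 0.22 (CD47, which associates with beta3 integrins) in total RNA, and of -0.13 (CD47) to 0.25 (PLAUR, the urokinase receptor) in ER-RNA.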

How the data were processed

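RNA of HT1080 cells was measured on 4 arrays (total RNA and ER-RNA, hypoxia and control), each of a pool of 5 experiments. Deposited values are log2 signals that the authors obtained by RMA normalization, and Partek 6.4 is named in the submitters' notes. Gene names came from the platform annotation, updated by gene identifier to RefSeq (19429 of 19460 probe sets naming 1 gene). Each gene was represented by its probe set with the highest mean. In R 4.3.3 with limma 3.58.1, the z-score used an SD from loess (span 0.75, degree 2) of the pair SD on the mean, fitted over both arrays of a pair. The methods name a loess model of SD on mean made separately for treatment and control groups. With 1 array per group no SD can be had within a group, so this step departs from them. The calling rule was checked on simulated data. All 4 values are given for members called or past the fold limit and for the expressed member with the highest mean in each class. Some further members, chosen after their values were seen, have all 4 as well, and the rest are given by name. From the other adhesion lists, called genes and those of extreme fold change were named. Members and lists were chosen with earlier results of these data known. The comparison within bins of signal was added after seeing the data. No table of proteins was used, so the planned protein features and bins of protein length were not analysed here. Normalization, filter, fold limit, SD model and probe set choice were varied in 10 alternatives.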

Additional observations from a re-analysis of the deposited data

Results flagged for a closer look

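The log2 fold change of hypoxia over control had opposite signs in the fractions for 4 members expressed in both. ITGA11 had -0.74 in total RNA and 0.14 in ER-RNA. ITGAV had 0.0156 in total RNA and -0.13 in ER-RNA. ITGB5 had -0.0482 in total RNA and 0.17 in ER-RNA. LAMC1 had -0.0352 in total RNA and 0.30 in ER-RNA. For none of them was this difference tested, since each group has 1 array. Under median centring, quantile normalization over the 4 arrays and loess within each pair, ITGA11 had opposite signs each time, at -0.81, -0.66 and -0.63 in total RNA against 0.05, 0.14 and 0.08 in ER-RNA. The other 3 lost the opposite signs under at least 1 of these. ITGAV was below 0 in both fractions with median centring (-0.06 and -0.21) and above 0 in both after quantile normalization (0.09 and 0.03). LAMC1 was above 0 in both after quantile normalization (0.05 and 0.42) and after loess (0.05 and 0.38), and ITGB5 was above 0 in both after loess (0.0037 and 0.29).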

How the results depend on the processing

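ITGB3 was called higher in total RNA under all 10 alternatives. Not all of these could remove the call: fold change alone only drops a condition, and the mean of all probe sets left every member's values unchanged. Values of members changed only under the scalings (median centring, quantile normalization and loess). In ER-RNA no member was called higher (0) with an SD from the scaled MAD, a fold limit of 2 or a filter at the upper quartile. By fold change alone, 3 members were higher and 2 lower in total RNA, and 5 were higher in ER-RNA. Quantile normalization over the 4 arrays and loess within each pair gave 2 members higher (ITGA5 and ITGB3) in each fraction. Median log2 fold changes over the members moved by less than 0.1 under every alternative, and only the scalings could move them. The median ER-RNA minus total RNA difference, less that of all genes, was -1.29 in hypoxia and -1.36 in control. It became -1.54 and -1.79 with the filter at the upper quartile, -0.74 and -0.77 with no filter, and -1.61 and -1.74 after quantile normalization. The cause of these shifts was not tested. Of 520 recomputed values of single members, 15 changed their call and 0 called values changed sign. A sign too could change only under the scalings. No paired analysis was possible because there is 1 array per group. The 1 pooled array per group leaves no measure of spread between experiments.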

Other observations

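The probe set that names both PELO, a ribosome rescue factor gene, and ITGA1, a collagen-binding integrin subunit gene, cannot be assigned to either. It had 9.52 in hypoxia and 9.29 in control in total RNA, and 8.28 in hypoxia and 8.23 in control in ER-RNA, with log2 fold changes of 0.23 and 0.05.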
